A study of Homo sapiens with 11 samples.

Results

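SSU72 and the polymerase II tail phosphatases were followed in MDA-MB-231 cells after silencing of MASTL. The group comprised 7 of the 20046 genes named in the annotation, SSU72, CTDSP1, CTDSP2, CTDSPL, CTDSPL2, CTDP1 and RPAP2. It was taken as every probe that the platform annotation, updated through the Entrez number, assigns to them. This gave 11 of the 47321 probes on each array. Of these, 10 probes, with at least 1 for each of the 7 genes, passed the noise filter, out of 27251 probes that passed it in all. The genes were chosen because SSU72 and CTDSPL were already known to be higher under MASTL siRNA in these values. Their MASTL siRNA values are therefore a description, and the limma calls of them counted below support nothing by themselves.

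MDA-MB-231 is a human triple-negative breast adenocarcinoma cell line. All cells were transfected with Lipofectamine RNAiMAX. The 4 groups were MASTL siRNA for 24 h (2 arrays, numbered 1 and 3), control siRNA for 24 h (3 arrays, numbered 1, 2 and 3), MASTL siRNA for 48 h (3 arrays, numbered 1, 3 and 4) and control siRNA for 48 h (3 arrays, numbered 1, 3 and 4). Only 1 siRNA against MASTL was used, so an effect of losing MASTL and an effect of this siRNA on other transcripts cannot be told apart. The labels do not say that replicates came from separate cultures, so the tests measure the spread between these arrays, and the number of arrays limits their precision.

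The carboxy-terminal tail of the largest RNA polymerase II subunit is a long run of repeated residues that kinases phosphorylate as transcription starts and proceeds. Phosphatases remove these marks so that the polymerase can pass from initiation to elongation, finish a transcript and be used again. SSU72 acts at the cleavage and polyadenylation complex, where it binds the scaffold symplekin. CTDP1, also called FCP1, recycles the polymerase after transcription, and RPAP2 acts early, near the start of genes. CTDSP1, CTDSP2 and CTDSPL are small phosphatases of the same catalytic fold as CTDP1. They also act with the repressor REST to keep neuronal genes silent outside the nervous system. CTDSPL2 is a relative known mainly for other protein substrates.

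The sequence below is the one the labels give for the MASTL siRNA, shown because it defines the silenced groups. MASTL lies on chromosome 10.
MASTL siRNA: acgccttattctagcaaatta
The genes of the small phosphatases also carry the miR-26 family in their annotated spans (RefSeq, GRCh38.p14). MIR26B lies within CTDSP1 on the same strand, with its 5p arm at chr2:218402657-218402677 (plus strand). MIR26A2 lies within CTDSP2 on the same strand, with its 5p arm at chr12:57824658-57824679 (minus strand). MIR26A1 lies within CTDSPL, with its 5p arm at chr3:37969413-37969434 (plus strand). The mature 5p arms share 1 seed (bases 2 to 8, in capitals), and the 2 genes of miR-26a give the same 5p sequence. These arrays were read here for the host genes only, and the values below say nothing of the mature miRNAs.
hsa-miR-26a-5p: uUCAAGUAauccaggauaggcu
hsa-miR-26b-5p: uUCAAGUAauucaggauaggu

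RefSeq promoter windows of 300 bases around the start were held for 6 of the 7 genes. They were searched on both strands for 6 motifs: GGGCGG, the GC box, found in 44.6% of all 27305 windows, CCAAT, found in 35.7%, TATAAA, the TATA box, found in 12%, CCGGAAG, an ETS site, found in 10.7%, TGACGTCA, the cyclic AMP response element, found in 1.98%, and CACGTG, the E-box, found in 7.43%. The windows of SSU72 and CTDSP1 are shown because these genes had the steadiest higher and lower values among the windows held. The SSU72 window at chr1:1574814-1575113 (GRCh38.p14, minus strand) held none of the 6 motifs. It had 40 CpG dinucleotides, against a median of 14 over all windows, and 67.3% GC. After the sequence was read, TGACG, the core of the cyclic AMP response element, was added to the search; 25% of all windows held it. The SSU72 window held 3 copies, marked in capitals, and 402 of the 27305 windows (1.47%) held at least 3. As this motif was picked from the SSU72 window, that share is a description and not a test. The CTDSP1 window at chr2:218396101-218396400 (plus strand) held 2 GC boxes and, on the minus strand, 1 match to the TATA box, all in capitals. It had 25 CpG dinucleotides and 72% GC. Of the windows not shown, CTDSP2 and RPAP2 each held 1 GC box, CTDSPL2 held 1 ETS site and CTDP1 held 1 cyclic AMP response element and, like SSU72, 3 copies of TGACG, 2 of them within that element. A match is a description of the letters and not evidence of a bound site.
SSU72 promoter: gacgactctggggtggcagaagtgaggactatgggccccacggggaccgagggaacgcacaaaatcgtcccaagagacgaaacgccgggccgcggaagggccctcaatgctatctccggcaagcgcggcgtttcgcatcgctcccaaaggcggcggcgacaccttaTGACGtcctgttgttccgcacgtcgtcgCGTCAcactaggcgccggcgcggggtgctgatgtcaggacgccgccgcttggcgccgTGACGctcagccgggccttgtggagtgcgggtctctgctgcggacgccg
CTDSP1 promoter: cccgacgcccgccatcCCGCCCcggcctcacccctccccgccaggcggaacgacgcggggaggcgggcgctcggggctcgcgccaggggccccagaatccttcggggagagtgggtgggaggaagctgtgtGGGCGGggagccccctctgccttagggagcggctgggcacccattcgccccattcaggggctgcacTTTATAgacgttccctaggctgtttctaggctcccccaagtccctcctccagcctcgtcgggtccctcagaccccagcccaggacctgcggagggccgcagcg

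MASTL itself was lower in both silenced groups. Its first probe read 7.61 and 7.69 in the MASTL siRNA arrays at 24 h, against 8.74, 8.73 and 8.64 in the control siRNA arrays. At 48 h it read 7.54, 7.53 and 7.67 under MASTL siRNA and 8.41, 8.42 and 8.72 under control siRNA. Values are the deposited normalized log2 values, with noise taken to end at 7.4092. Folds below treat the log2 as plain, which the sources used here do not state. The change of MASTL was -1.05 (SE 0.091) at 24 h and -0.93 (SE 0.082) at 48 h, with limma adjusted p of 0.00152 and 0.0012. A second MASTL probe, above the noise limit on 10 arrays, gave -0.62 at 24 h and -0.58 at 48 h, with limma adjusted p of 0.0142 and 0.00724. Pearson correlations between arrays of 1 group lay between 0.9899 and 0.9967. All 6 mesenchymal markers of the line (VIM, CD44, ZEB1, CAV1, AXL and MSN) were above the noise limit on all 11 arrays. Of 7 luminal breast markers, 4 were above it on all arrays (ERBB3, FOXA1, GATA3 and KRT19) and CDH1 and PGR on none. Of 4 leukocyte markers, CD14 and CD79A were above it on all arrays and PTPRC and CD3E on none. Of 3 endothelial markers, PECAM1 was above it on all arrays and VWF and CDH5 on none, and of 4 fibroblast markers 0 were above it on all arrays and LUM on none. The part of such signal in the results was not tested.

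SSU72, the phosphatase of the cleavage and polyadenylation complex, was higher under MASTL siRNA at both times. At 24 h its probe read 11.57 and 11.63 in the MASTL siRNA arrays, against 10.96, 11.05 and 11.02 in the control siRNA arrays. After 48 h the probe read 11.60, 11.51 and 11.49 under MASTL siRNA, against 10.91, 11.03 and 10.79 under control siRNA. The lowest MASTL siRNA array lay above the highest control siRNA array at each time, and the silenced arrays of both times fell in 1 narrow band. The group means were 11.60 ± 0.04 (SD, n = 2) under MASTL siRNA and 11.01 ± 0.05 (SD, n = 3) under control siRNA at 24 h. At 48 h they were 11.53 ± 0.06 under MASTL siRNA and 10.91 ± 0.12 under control siRNA (SD, n = 3 each). The change of SSU72 was thus 0.59 (SE 0.065) at 24 h, or 1.51-fold, and 0.62 (SE 0.058) at 48 h, or 1.54-fold. The 48 h change exceeded the 24 h change by 0.03 (SE 0.087), which is less than its own error. Values are relative to the other RNAs of the same culture, so more transcript per cell and a larger share of cells that carry it cannot be told apart.

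**Figure D1:**
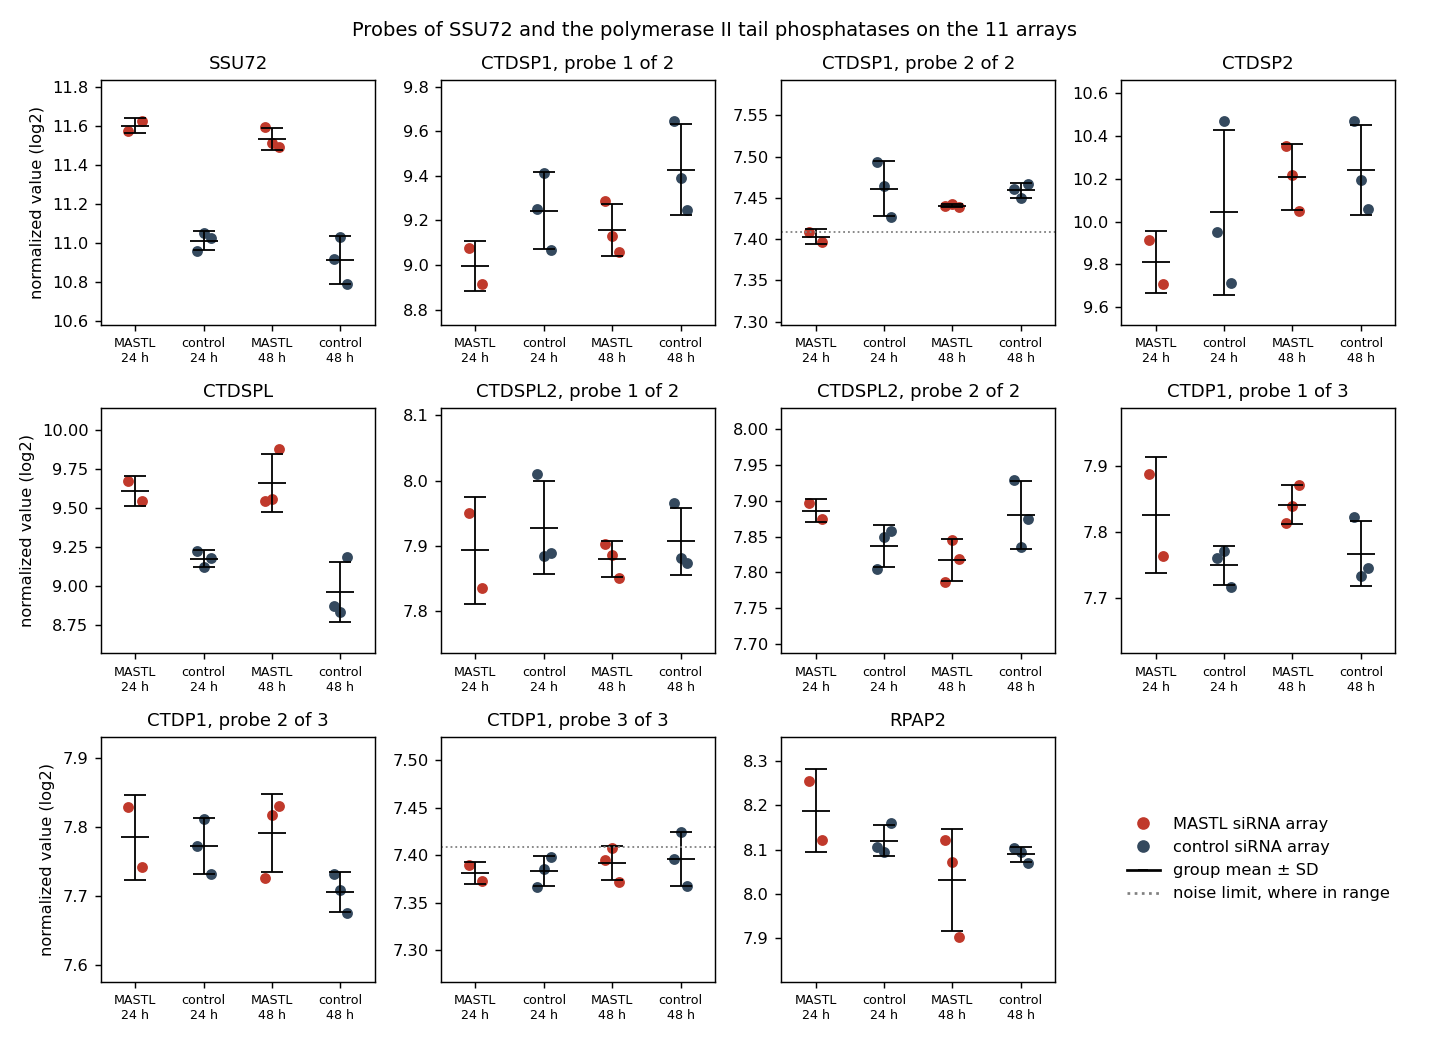
Normalized log2 value of each of the 11 probes in every array, by siRNA and time. Points are arrays, bars are group mean ± SD, and the dotted line is the noise limit of 7.4092 where it falls in range; axes differ between panels and do not start at 0. The MASTL siRNA arrays of SSU72 and CTDSPL lie above the control siRNA arrays at both times, whereas those of the other probes mostly overlap them.

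The SSU72 probe is the only one on the array assigned to the gene. RefSeq also names 6 protein-coding genes and 2 pseudogenes after SSU72, and the probe sequence was not used here, so signal from such copies cannot be separated. Leaving out any 1 array gave a change of SSU72 between 0.564 and 0.616 at 24 h and between 0.559 and 0.679 at 48 h. Among the 27251 probes its change ranked 11 from the top at 24 h and 26 from the top at 48 h.

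CTDSPL is a small phosphatase that also acts on the retinoblastoma protein and on SMAD proteins. It was the other gene whose MASTL siRNA arrays all read above the control siRNA arrays at both times. At 24 h its probe read 9.68 and 9.54 in the MASTL siRNA arrays, against 9.23, 9.12 and 9.18 in the control siRNA arrays. At 48 h it read 9.55, 9.56 and 9.88 under MASTL siRNA, against 8.87, 8.83 and 9.18 under control siRNA. The groups did not overlap at either time, and replicate 4 was the highest array of both 48 h groups. The group means of CTDSPL were 9.61 ± 0.09 (SD, n = 2) under MASTL siRNA and 9.18 ± 0.05 (SD, n = 3) under control siRNA at 24 h. At 48 h they were 9.66 ± 0.19 under MASTL siRNA and 8.96 ± 0.19 under control siRNA (SD, n = 3 each). The change of CTDSPL was 0.43 (SE 0.125) at 24 h, or 1.35-fold, and 0.70 (SE 0.112) at 48 h, or 1.62-fold. The 48 h change was larger by 0.27 (SE 0.168). The MASTL siRNA means of CTDSPL lay within 1 SD of each other at the 2 times, and the control siRNA mean was lower at 48 h than at 24 h by a difference that the test of time given below did not call.

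The change of CTDSPL ranked 57 from the top among the 27251 probes at 24 h and 16 from the top at 48 h. Without any 1 array it lay between 0.367 and 0.50 at 24 h and between 0.591 and 0.811 at 48 h.

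CTDSP1, the small phosphatase whose gene holds MIR26B, averaged lower under MASTL siRNA, by an amount near the spread between arrays. Its first probe read 9.08 and 8.91 in the MASTL siRNA arrays at 24 h, against 9.25, 9.41 and 9.07 in the control siRNA arrays. The same probe at 48 h read 9.29, 9.13 and 9.06 under MASTL siRNA, against 9.65, 9.39 and 9.25 under control siRNA. The groups overlapped at both times, through the lowest control siRNA array and the highest MASTL siRNA array. The change of this CTDSP1 probe was -0.25 (SE 0.133) at 24 h and -0.27 (SE 0.119) at 48 h. A second CTDSP1 probe lay close to the noise limit, between 7.40 and 7.49 on the 11 arrays, and exceeded the limit on 9 of them. Its change was -0.059 (SE 0.022) at 24 h and -0.018 (SE 0.020) at 48 h, and every MASTL siRNA array read below every control siRNA array of its time. Both CTDSP1 probes thus had lower values under MASTL siRNA, with the second close to the noise.

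CTDSP2, the small phosphatase whose gene holds MIR26A2, showed more spread between control siRNA arrays than difference between siRNAs. It read 9.91 and 9.71 in the MASTL siRNA arrays at 24 h, against 9.95, 10.47 and 9.71 in the control siRNA arrays. At 48 h CTDSP2 read 10.36, 10.22 and 10.05 under MASTL siRNA, against 10.47, 10.19 and 10.06 under control siRNA. The 24 h control siRNA replicate 2 stood apart, and the groups overlapped at both times. The change of CTDSP2 was -0.23 (SE 0.21) at 24 h and -0.03 (SE 0.187) at 48 h. Without control siRNA replicate 2 the 24 h change of CTDSP2 was -0.0204.

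CTDSPL2, the relative with other protein substrates, had 2 probes that differed in sign at 24 h. The first read between 7.84 and 8.01 on the 11 arrays, with a difference of -0.03 (SE 0.050) at 24 h and -0.03 (SE 0.045) at 48 h and overlapping groups. The second read between 7.79 and 7.93, with a difference of 0.05 (SE 0.032) at 24 h and -0.06 (SE 0.029) at 48 h. Its MASTL siRNA arrays lay above the control siRNA arrays at 24 h and overlapped them at 48 h.

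CTDP1, the phosphatase that recycles the polymerase, had 3 probes, all low on these arrays. The first read between 7.72 and 7.89, with a difference of 0.08 (SE 0.042) at 24 h and 0.07 (SE 0.038) at 48 h and overlapping groups. The second read between 7.68 and 7.83, with a difference of 0.01 (SE 0.041) at 24 h and 0.09 (SE 0.037) at 48 h, and its groups overlapped as well. The third exceeded the noise limit on 1 of 11 arrays and was left out of the fit. RPAP2, the phosphatase of early transcription, read between 7.90 and 8.25, with a difference of 0.07 (SE 0.063) at 24 h and -0.06 (SE 0.056) at 48 h. Its lowest array was MASTL siRNA replicate 4 at 48 h, and its groups overlapped at both times.

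SSU72 and CTDSPL were the genes higher in every pair of same-numbered arrays. Their groups did not overlap at either time, so this was fixed in advance and adds no support. SSU72 was higher under MASTL siRNA in 5 of 5 same-numbered pairs, by 0.479 to 0.700. CTDSPL was higher in 5 of 5 pairs, by 0.362 to 0.727, and its 3 pairs at 48 h differed by 0.70 ± 0.025 (SD, n = 3). The SSU72 pairs at 48 h differed by 0.62 ± 0.12 (SD, n = 3). The first CTDSP1 probe was lower under MASTL siRNA in 5 of 5 pairs, by 0.15 to 0.362, although its groups overlapped. The second CTDSP1 probe, close to the noise limit, was also lower in 5 of 5. Both fitted CTDP1 probes were higher in 4 of 5 pairs. CTDSP2 and the first CTDSPL2 probe were lower in 4 of 5 pairs. The second CTDSPL2 probe was higher in 3 and lower in 2, and RPAP2 was higher in 2 and lower in 3. For CTDSPL the spread between arrays at 48 h was therefore shared between same-numbered arrays. For SSU72 the spread of the 48 h pairs was near that of its control siRNA group (SD 0.12) and above that of its MASTL siRNA group (SD 0.06).

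**Figure D2:**
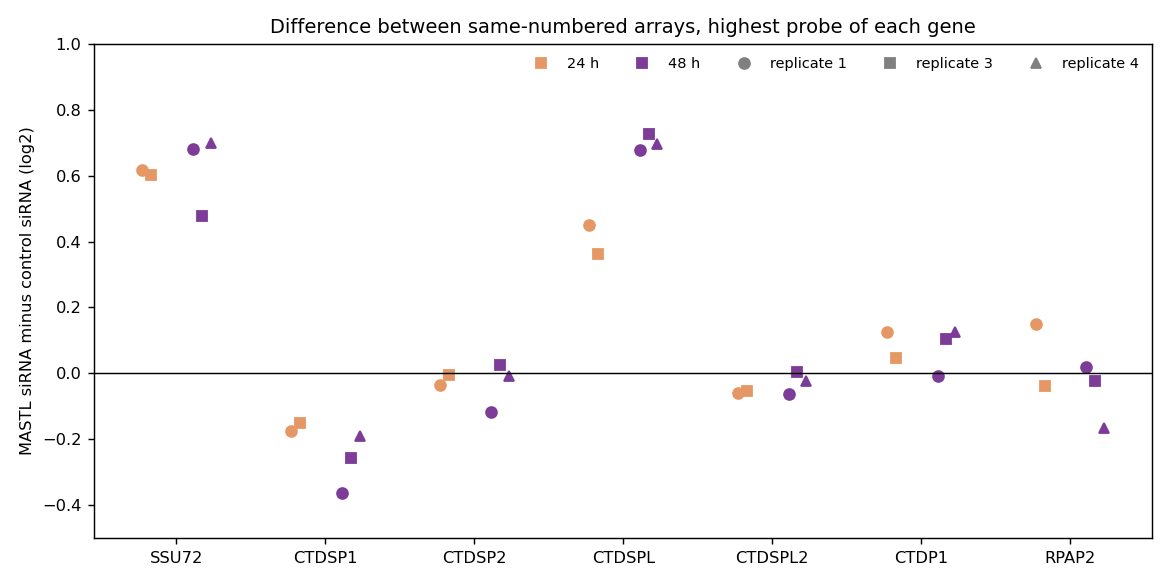
Difference in log2 value between the MASTL siRNA array and the control siRNA array of the same replicate number, for 1 probe of each gene; colour gives the time and shape the replicate number. All 5 differences lie above 0 for SSU72 (0.479 to 0.700) and CTDSPL (0.362 to 0.727), which follows from their non-overlapping groups, and below 0 for CTDSP1. For CTDP1 4 of 5 lie above 0, and those of the other genes lie on both sides of 0.

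Over the 10 probes that passed the filter, limma with Benjamini-Hochberg adjustment called 1 higher under MASTL siRNA at 24 h (SSU72), where 0.217% of all probes were called higher, and 0 lower, where 0.690% were. At 48 h limma called 2 higher (SSU72 and CTDSPL), where 1.02% of all probes were called higher, and 0 lower, where 1.32% were. With the replicate block within each time, CTDSPL was also called higher at 24 h (2 of 10 probes, against 0.983% of all probes higher and 1.87% lower), and the first CTDSP1 probe was called lower at 48 h (2 higher and 1 lower of 10, against 5.96% of all probes higher and 5.69% lower). At 24 h that block rests on 2 pairs whose pairing the arrays do not settle. The 24 h call of SSU72 was lost without MASTL siRNA replicate 3. The 48 h call of CTDSPL was lost without control siRNA replicate 1 or 3 and with the 48 h arrays alone. These counts use the contrast by which the genes were chosen and support nothing by themselves. The median change of the 10 probes was 0.031 at 24 h and -0.0228 at 48 h, beside 0.00233 and 0.0013 over all probes. Arrays of the MASTL siRNA group lay wholly above those of the control siRNA group for 3 of the 10 probes at 24 h, against 13.2% of all probes, and for 2 at 48 h, against 10.1%. They lay wholly below for 1 probe at each time, against 12.0% of all probes at 24 h and 8.67% at 48 h. Only the probes of SSU72 and CTDSPL were wholly above at both times, which held for 3.63% of all probes. The second CTDSP1 probe was wholly below at both times, as were 3.59% of all probes.

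The time of culture under control siRNA was not the contrast used to choose the genes, and it was tested. It shares its control siRNA arrays with the contrasts that were used, so for the chosen genes it is not independent of the choice. None of the 10 probes was called for 48 h against 24 h, and 0 had an unadjusted p under 0.05 in limma. Changes ran from -0.21 to 0.20, with adjusted p between 0.585 and 0.987. Over all 27251 probes 0 were called (0%), and 2667 had an unadjusted p under 0.05. SSU72 differed by -0.10 (SE 0.058, adjusted p = 0.633) and CTDSPL by -0.21 (SE 0.112, adjusted p = 0.585). CTDSP2 differed by 0.20 (SE 0.187, adjusted p = 0.79) and the first CTDSP1 probe by 0.19 (SE 0.119, adjusted p = 0.664). None of these differences passed the threshold, which does not place them all within the spread between arrays. The second CTDP1 probe differed by -0.07 (SE 0.037, limma adjusted p = 0.611). Each of its 48 h control siRNA arrays read below each 24 h one, although the nearest arrays both read 7.73.

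The genes whose pattern over the 11 arrays was most like that of SSU72 were NEDD4, MRPL50, RAB11FIP2, RAB23 and CEMIP2, with Pearson r between 0.954 and 0.974. NEDD4 encodes a ubiquitin ligase, MRPL50 a protein of the mitochondrial ribosome, and RAB11FIP2 and RAB23 proteins of vesicle traffic. For CTDSPL they were HABP4, STK38, RAB11FIP1, LOC407835 and SLC22A5, with r between 0.962 and 0.970. STK38 encodes a kinase of the NDR family and SLC22A5 a carnitine transporter. The 11 arrays share the 4 groups, so r was also taken over deviations from the group means. It then lay between 0.379 (CEMIP2) and 0.796 (NEDD4) for SSU72 and between 0.823 (SLC22A5) and 0.915 (HABP4) for CTDSPL.

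The wider tail pathway was read from 9 lists of 107 genes, of which 94 were tested. The lists were chosen with earlier results of these data known, so the counts of calls in them are a description. Under MASTL siRNA 1 of the 94 rose and 1 fell at 24 h, where 0.371% and 0.914% of named genes did. At 48 h 5 rose and 2 fell, where 1.45% and 1.80% of named genes did. With replicate number as a block within each time the counts at 24 h were 3 higher and 1 lower, where 1.51% and 2.47% of named genes were called, and at 48 h they were 15 higher and 6 lower, where 8.24% and 8.04% of named genes were called. The 24 h counts with the block rest on a pairing that the arrays do not settle. Between the times, 0 of the 94 differed in their MASTL siRNA change by limma, with 4 at an unadjusted p under 0.05 (3.32% of named genes). For the counts at an unadjusted p under 0.05 given per list below, the share over all named genes was 11.6% at 24 h and 17.7% at 48 h.

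Among 11 tested kinases and cyclins that act on the tail, CDK19 fell at both times and CCNT1 fell at 48 h. CDK19, a kinase of the Mediator complex, read 7.86 and 7.85 in the MASTL siRNA arrays at 24 h, against 8.52, 8.77 and 8.33 in the control siRNA arrays. At 48 h it read 8.10, 8.15 and 8.05 under MASTL siRNA, against 8.66, 8.71 and 8.64 under control siRNA. Its groups were apart at both times, by -0.68 (SE 0.10, limma adjusted p = 0.0177) at 24 h and -0.57 (SE 0.089, adjusted p = 0.0145) at 48 h. The 24 h call of CDK19 was lost without MASTL siRNA replicate 1 or 3, without control siRNA replicate 1 and with the 24 h arrays alone. The 48 h call was lost without control siRNA replicate 1 or 3 or MASTL siRNA replicate 4. Over all alternatives its difference lay between -0.79 and -0.57 at 24 h and between -0.59 and -0.55 at 48 h. CDK8, the paralogue of CDK19, differed by 0.01 at 24 h and -0.01 at 48 h and was not called. CCNT1, a cyclin of the elongation kinase P-TEFb, fell by 0.21 (SE 0.039, adjusted p = 0.0279) at 48 h. The 2 other CCNT1 probes gave -0.0225 and -0.00047 at 48 h. The CCNT1 call was lost without 48 h control siRNA replicate 1, 3 or 4, MASTL siRNA replicate 1 or 3 or 24 h control siRNA replicate 1, and with the 48 h arrays alone. With the replicate block, CDK13 (0.18) and CCNC (-0.25) were also called at 48 h. The median of the list was 0.0218 at 24 h and -0.0268 at 48 h, beside 0.0045 and 0.002 over all named genes. Of 4 inhibitors of P-TEFb in the 7SK complex, 0 were called by limma, with 2 at an unadjusted p under 0.05 at 24 h and 0 at 48 h, and their median was 0.0431 at 24 h and 0.0183 at 48 h.

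Of 12 polymerase II subunits, 1 rose at 24 h and 2 at 48 h, with a median of 0.0943 at 24 h and 0.0375 at 48 h. POLR2H, a subunit common to the nuclear polymerases, rose by 0.19 (SE 0.025, adjusted p = 0.01) at 24 h and by 0.21 (SE 0.022, adjusted p = 0.00246) at 48 h. The 24 h call of POLR2H was lost without MASTL siRNA replicate 1 or 3 and with the 24 h arrays alone. POLR2F, also a common subunit, rose by 0.40 (SE 0.052, adjusted p = 0.00579) at 48 h. POLR2A, whose tail the phosphatases act on, differed by 0.18 at 24 h and 0.38 at 48 h without passing the threshold (limma adjusted p = 0.91 and 0.483), and passed it at 48 h with the replicate block (adjusted p = 0.0048). That block also called POLR2C (0.29), POLR2I (0.33) and POLR2G (-0.18) at 48 h.

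None of the 18 cleavage and polyadenylation factors, among which SSU72 works, passed the threshold at either time, and their median was 0.0366 at 24 h and -0.0114 at 48 h. The symplekin gene SYMPK differed by 0.12 at 24 h and 0.06 at 48 h. CPSF3, the endonuclease, differed by 0.26 at 24 h and 0.22 at 48 h, and was called at 48 h with the replicate block (limma adjusted p = 0.0147), as were CPSF4 (0.17) and WDR33 (-0.13). With unadjusted p under 0.05 there were 2 of these factors at 24 h and 4 at 48 h. The 11 tested partners of the tail or of its phosphatases (0 called, 2 and 1 at an unadjusted p under 0.05 at 24 h and 48 h) and the 19 genes of the Integrator and PNUTS phosphatase complexes (0 called, 3 and 4) gave no limma call in the fit of all arrays without the block. With the 48 h arrays alone, PPP1CC and INTS7 were called. With the replicate block, GTF2F2 (0.21 at 24 h and 0.20 at 48 h) and INTS10 (0.30 at 24 h and 0.32 at 48 h) were called at both times, and RPRD2 (0.12), PPP1CC (0.20) and INTS7 (-0.26) at 48 h. The 24 h calls of GTF2F2 and INTS10 rest on the unsettled pairing at that time. The medians of the partners and of these complexes were 0.0541 and 0.0854 at 24 h and 0.0536 and 0.0493 at 48 h. Of 2 other enzymes of the FCP and SCP fold 0 were called, with 1 at an unadjusted p under 0.05 at 24 h and 0 at 48 h. UBLCP1, one of them, differed by -0.22 at 24 h and -0.17 at 48 h.

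**Figure D3:**
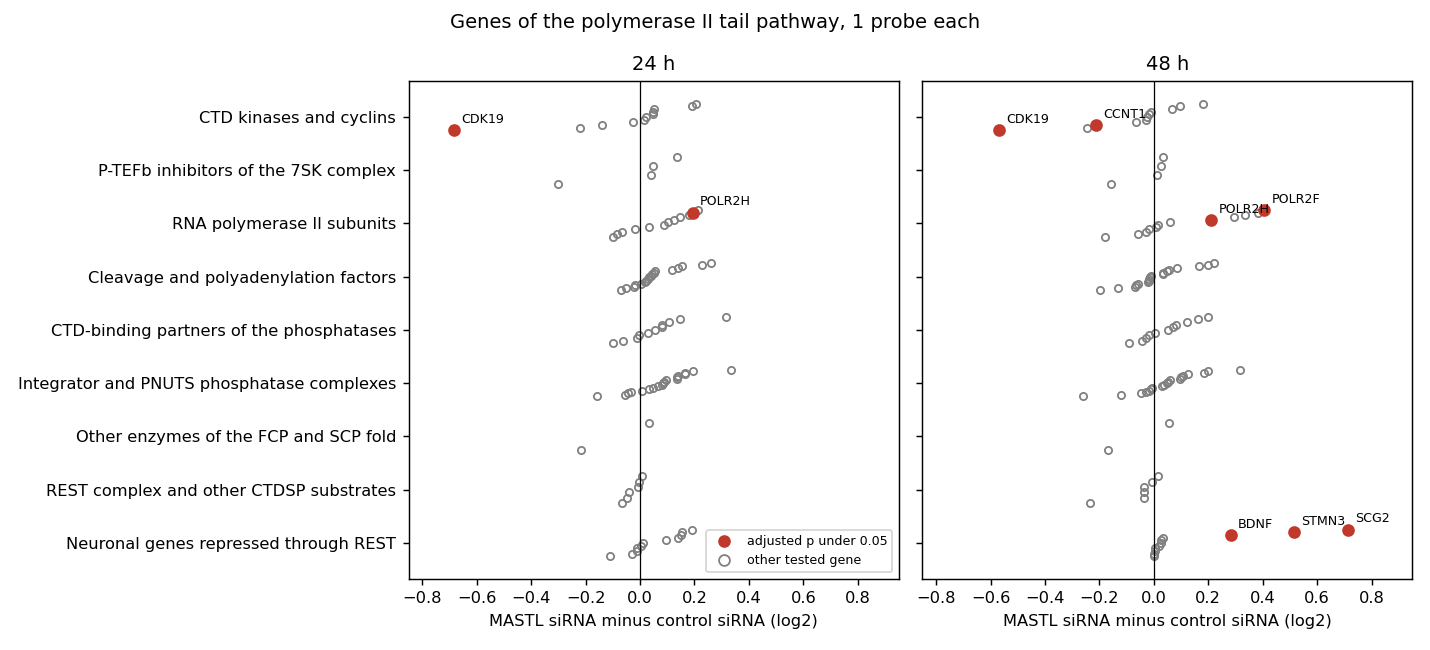
Change in log2 value, MASTL siRNA minus control siRNA, of each tested gene in 9 pathway lists at 24 h and 48 h. Each point is 1 gene; filled points passed an adjusted p of 0.05 in limma and are named, 2 at 24 h and 7 at 48 h.

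The small phosphatases act with REST, so that repressor and its targets were read as well. REST and the 5 other tested genes of its complex and of CTDSP substrates gave 0 calls at either time and 0 at an unadjusted p under 0.05, and REST itself differed by -0.0022 at 24 h and -0.04 at 48 h. Of 18 listed neuronal genes repressed through REST, 11 were tested, of which 0 were called at 24 h and 3 rose at 48 h. At 24 h these 3, SCG2, STMN3 and BDNF, differed by 0.19, 0.16 and 0.15. Their changes at the 2 times did not differ by limma at the threshold. SCG2, a granin of secretory vesicles, read 8.40, 8.26 and 8.26 under MASTL siRNA at 48 h, against 7.58, 7.57 and 7.63 under control siRNA. It rose by 0.71 (SE 0.040, adjusted p = 0.000187), with the groups far apart, although its control siRNA arrays lay close to the noise limit. STMN3, a stathmin that binds tubulin, rose by 0.51 (SE 0.090, adjusted p = 0.0230), and this call was lost without 48 h control siRNA replicate 1 or 3 or MASTL siRNA replicate 1 or 4 and with the 48 h arrays alone. BDNF, a neurotrophin, rose by 0.28 (SE 0.042, adjusted p = 0.0109) by 1 probe, a call lost with the 48 h arrays alone (adjusted p = 0.0521), whereas its 4 other probes gave -0.0073 to 0.036. Of these 4, only 1 exceeded the noise limit on all 11 arrays (0.0258), and the rest did so on 2 to 4. The other 8 neuronal genes, SYN1, CHGA and L1CAM among them, were not called and differed by -0.00083 to 0.035 at 48 h, so that the median of the list was 0.0245 beside 0.002 over all named genes.

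**Figure D4:**
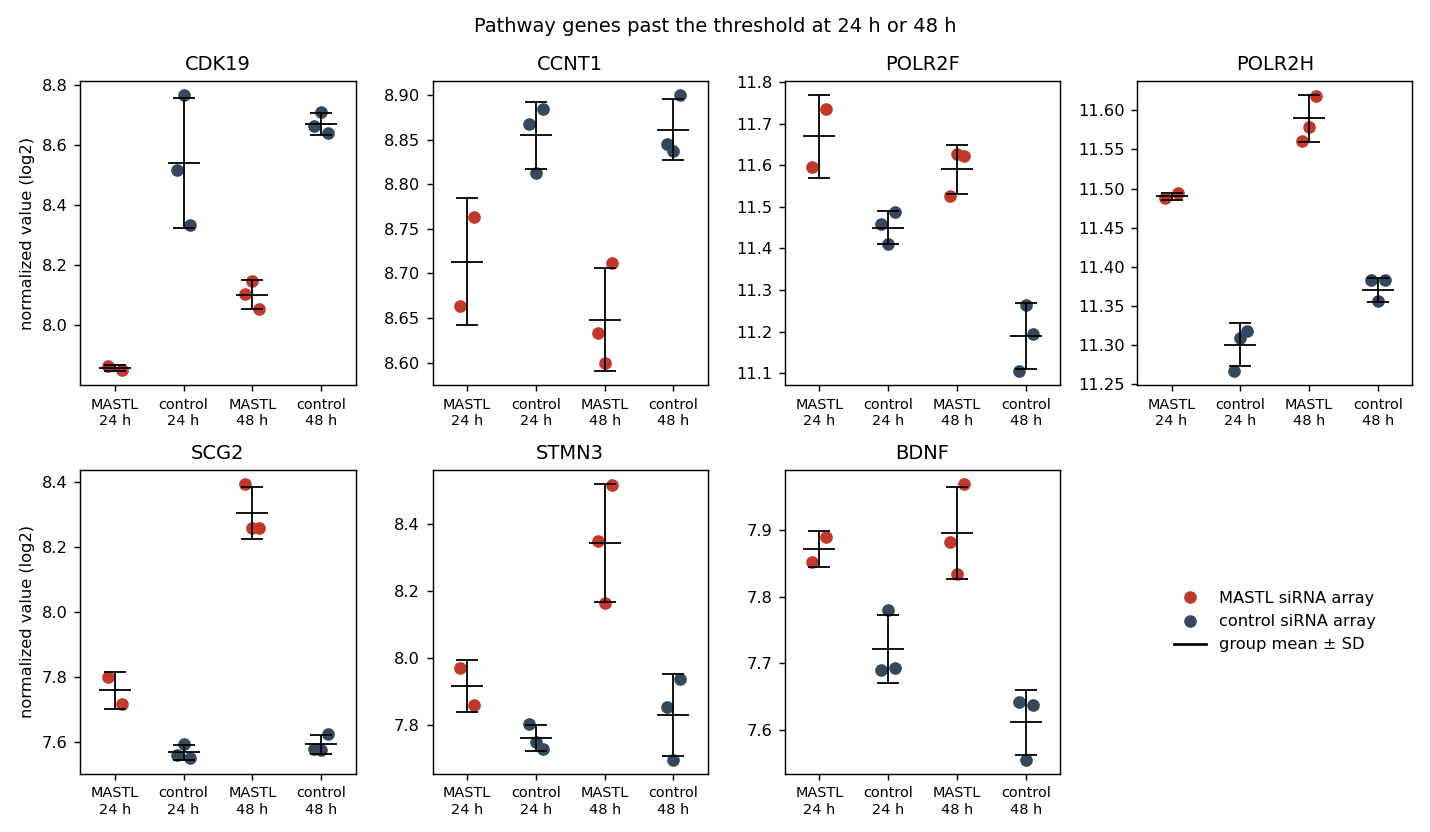
Normalized log2 value in every array of the 7 pathway genes that passed the threshold at 24 h or 48 h, by siRNA and time. Points are arrays and bars are group mean ± SD; axes differ and do not start at 0. CDK19 and CCNT1 read lower and POLR2F, POLR2H, SCG2, STMN3 and BDNF higher in the MASTL siRNA arrays at 48 h than in the control siRNA arrays.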

How the data were processed

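Per the labels' protocols, RNA was amplified to biotin-labelled cRNA for 1-colour bead arrays. The authors deposited normalized values, taken as log2 from their range (7.24 to 14.51). Sorted values differ between arrays by at most 0.000698, so the arrays were normalized to each other before deposit. The submitters' processing notes name lumi without its version or role. Whether the log2 is plain or variance-stabilized is not stated. Depth has no counterpart on arrays. A non-normalized table (22 columns, 11 of them signals) was left aside because the labels do not show which sample each column is, although the design had allowed for it.

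The noise limit, 7.4092, is the 95th percentile of values below the most common value (7.357) mirrored about it. Probes above it on at least 2 arrays were kept. Of all probes, 30113 carry 1 symbol, 8 several and 17200 none. A model with a mean per group was fitted to all 11 arrays with limma 3.58.1 in R 4.3.3 (residual df 7, prior df 1.71) and tested on simulated data first. Calls were two-sided at a Benjamini-Hochberg adjusted p under 0.05 over all 27251 probes. Lists used the probe of highest mean per gene (14005 named genes). The genes, lists and rule were chosen with earlier results of these data known. The rule named every probe of the 7 genes, up to 4 called genes per list (otherwise the 2 of highest mean, LARP7, MEPCE, RPRD1A, GTF2F2, PPP1CA, PPP1CC, SMAD3 and SIN3A among them), the 5 most like genes and MASTL. Genes called with the replicate block alone, and POLR2A, CDK8, SYMPK, REST, SYN1, CHGA and L1CAM were named as well after their values were seen.

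At 48 h, arrays of the same number deviated together from their groups (r of 0.689, 0.535 and 0.768 over probes). They were treated as pairs on that evidence, which the labels do not give, only in the pair differences and the replicate blocks. The main fit had no replicate block, so its SEs and adjusted p values are unpaired. The 2 pairs at 24 h (0.0946 and 0.459) were too few to decide, and MASTL siRNA array 1 gave 0.327 with control siRNA array 2. That control siRNA array has no same-numbered partner, so it does not enter the 24 h change under the block within each time. Calls at 24 h with that block are therefore a description. Across times control arrays 1 and 3 gave -0.0951 and -0.201. Figures used matplotlib 3.10.9 in Python 3.11.15.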

Additional observations from a re-analysis of the deposited data

How the results depend on the processing

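The changes of SSU72 and CTDSPL under MASTL siRNA were positive at both times under every alternative run (no filter or a stricter one, 1 probe a gene, array weights, cyclic loess, the replicate blocks, arrays of the compared groups only, each array left out), although calls were lost as given above. The genes were chosen for this rise and their groups do not overlap. Leaving out an array or changing the filter or array weights could therefore not turn the sign, which adds no support. Counts of called probes moved more. At 24 h the 247 called became 67 with the arrays of the 2 compared groups only, 459 with a replicate block of 1 number over all arrays and 777 with the block within each time, and leaving out 1 array gave 71 to 248. At 48 h the 638 called became 419 with the compared groups only, 1202 with array weights, 2239 with the replicate block over all arrays and 3173 with it within each time, and leaving out 1 array gave 303 to 694. For time under control siRNA the 0 called became 3 with array weights, 3058 with the replicate block over all arrays, and 0 to 43 with 1 array left out (43 without the 24 h control siRNA replicate 2). That block also called CTDSP1 (0.34, adjusted p = 0.00524), CTDSP2 (0.494, adjusted p = 0.0014) and CTDSPL (-0.35, adjusted p = 0.00301) for time under control siRNA. That block fits replicate number over all arrays, although not every number occurs at both times. The pairing across times is not borne out by the arrays' deviations.

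For time under control siRNA the sign turned with 1 array left out for the second CTDSP1 probe (-0.0195 to 0.0138, with 0.0028 among them), the first CTDSPL2 probe (-0.0505 to 0.0205) and the first CTDP1 probe (-0.00984 to 0.0351), none of them called in either case. Under MASTL siRNA, leaving out 1 array gave values on both sides of 0 for CTDSP2 at 48 h (-0.125 to 0.0818), the first CTDSPL2 probe at 24 h (-0.0924 to 0.0228) and 48 h (-0.0437 to 0.00249), the second CTDP1 probe at 24 h (-0.0306 to 0.0564) and RPAP2 at 48 h (-0.101 to 0.00798). The cause was not tested. Signal near the noise limits what can be read from CTDP1, CTDSPL2 and the second CTDSP1 probe, and from SCG2, STMN3 and BDNF. The 24 h comparison is limited by its 2 MASTL siRNA arrays. No group has the 4 arrays that a check for a single deviating array needs.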
